A study of Homo sapiens with 6 samples.

Results

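Chromatin accessibility at 10 genes of the hypoxia response was examined in parental and SAP30-knockout MDA-MB-231 cells. The genes were HIF1A, EPAS1, ARNT, VEGFA, CA9, SLC2A1, PDK1, LDHA, ANKRD37 and EGLN3, which are 10 of 20176 annotated protein-coding genes. They were chosen by name, with no measured value in the rule, but with earlier results of these data known. MDA-MB-231 is a human cell line of triple-negative breast cancer, and ATAC-seq reads out open DNA by letting a transposase cut it and insert sequencing adapters. The parental group had 3 libraries, as did SAP30-KO1, the line in which CRISPR removed SAP30, a subunit of the SIN3 histone deacetylase complex. SAP30-KO1 was a mixture of several selected knockout cells made with 1 guide, so an effect of the guide or of the selected cells cannot be told apart from loss of SAP30. Both groups were grown in serum-supplemented medium in an incubator, and no low-oxygen treatment is named for either. The labels do not say whether the libraries of a group came from separate cultures, so the p-values measure the spread between these libraries, which may be technical.

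In cells with enough oxygen, prolyl hydroxylases, one of which is encoded by EGLN3, mark the alpha subunits of the hypoxia-inducible factors, and the VHL ubiquitin ligase then sends them for destruction. When oxygen falls, the alpha subunits encoded by HIF1A and EPAS1 persist, pair with the ARNT protein and bind the hypoxia response element, whose core is ACGTG or GCGTG. Their targets move metabolism towards glycolysis (SLC2A1, PDK1, LDHA), manage acid (CA9), promote vessel growth (VEGFA) and restrain the factors themselves (EGLN3).

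The libraries held 29762 to 40650 peak summits, and a summit is the single base at which a peak is highest. Each summit carried a score from the authors' peak caller, −log10 of its q value. Because each library was called on its own, the score was turned into its percentile rank within the library, from 0 to 100, and a gene with no peak was given rank 0. A promoter peak was a summit within 1 kb of any annotated start site of the gene, and the strongest was used. Gene windows ran from 20 kb upstream of a gene to its end, and the summits of the 6 libraries were extended by 250 bp on each side and merged into loci. Coordinates are those of GRCh37 (hg19). Read counts were not part of the lists, and the depth behind a value is unknown.

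The labelled cell type was checked on the promoters of marker genes. Of 5 mesenchymal genes, VIM, CD44 and MSN had a promoter peak in each of the 6 libraries, and ZEB1 and AXL in 3 each. Of 6 genes of luminal or epithelial cells, CDH1 had no peak, ESR1 and PGR had a peak in 1 library each and ESRP1 in 2. EPCAM and GATA3 had a peak in 5 libraries each, so these promoters went against the closed state that the marker list assumed. The SAP30 promoter itself had a peak in all 6 libraries, at ranks 84.7, 64.8 and 81.3 in parental and 71.8, 49.5 and 89.5 in SAP30-KO1 cells, which does not check the knockout, since a guide-made lesion need not close a promoter.

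A peak at the promoter was present in every library for 6 of the 10 genes (HIF1A, ARNT, PDK1, LDHA, ANKRD37 and EGLN3), or 60%, beside 34.5% of all protein-coding genes. EPAS1 had a peak in 4 libraries and SLC2A1 in 3. VEGFA and CA9 had none in any library, as did 37.7% of all protein-coding genes. In 1 gene, LDHA, all 3 SAP30-KO1 ranks lay below all 3 parental ranks, and in 0 genes did they all lie above. Over all 12572 promoters with a peak in at least 1 library, 4.57% lay below in this way and 6.01% lay above. Averaged over the 10 genes, the rank was 48.5, 32.9 and 40.9 in parental and 41.5, 58.7 and 41.8 in SAP30-KO1 libraries, with SAP30-KO1 replicate 2, the longest list, highest. The group means of 40.8 ± 7.80 and 47.3 ± 9.83 (SD, n = 3 each) differed by less than the spread between libraries. With 3 libraries against 3, the exact permutation test (two-sided) has 20 assignments and cannot go below p = 0.1. Any feature whose groups are apart has this p by construction, so it adds nothing to the separation. After Benjamini-Hochberg adjustment over the 12572 promoters, the lowest adjusted p was 0.945. limma, fitted to the ranks of the 6966 promoters with a peak in all 6 libraries, called 0 (0%) at an adjusted p of 0.05, and 461 had an unadjusted p under 0.05.

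**Figure D1:**
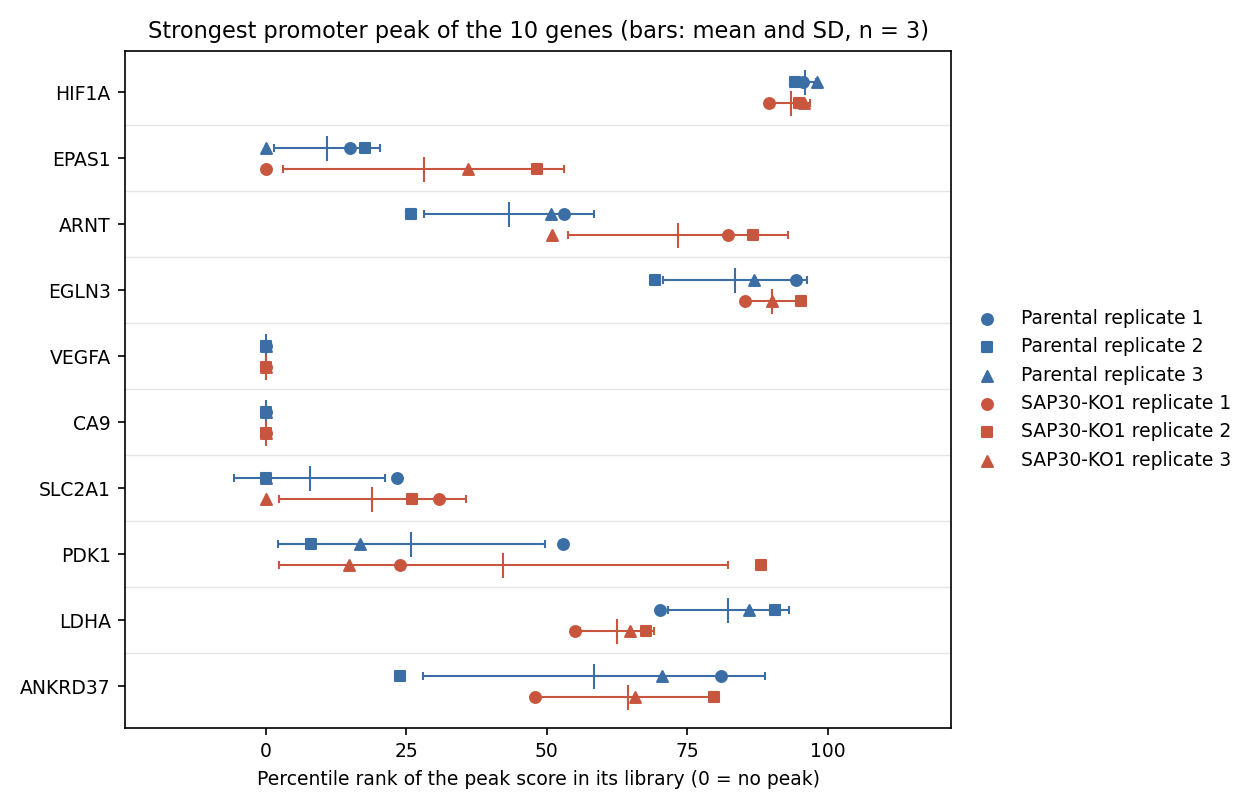
Percentile rank of the strongest promoter peak (x axis, 0 for no peak) of each gene (rows) in 3 parental (blue) and 3 SAP30-KO1 (red) libraries, with the group mean and SD as bars. HIF1A stays above 89 in every library, VEGFA and CA9 sit at 0, and LDHA is the row in which the colours do not overlap.

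HIF1A, which encodes an oxygen-regulated alpha subunit, lies at chr14:62162231-62214977 on the plus strand. A start of the non-coding gene HIF1A-AS1 lies within 1 kb of its promoter locus, so the locus is shared. The HIF1A promoter had the highest mean rank of the 10 genes in both groups. The rank was 95.6, 94.1 and 98.1 in parental and 89.6, 94.9 and 95.8 in SAP30-KO1 libraries. The groups overlapped, and the means of 95.9 ± 2.03 and 93.5 ± 3.37 (SD, n = 3 each) did not differ beyond the spread (exact permutation test, two-sided, p = 0.5). The only locus outside the promoter, in an intron 48.7 kb downstream, had a peak in SAP30-KO1 replicate 3 alone, at rank 24.2. The summits of the promoter peak lay 58 to 203 bp upstream of the canonical start. The 150 bases that end at the base before that start are shown because this promoter ranked highest. Capitals would mark either core of the hypoxia response element, and there is none in this stretch.
HIF1A upstream of the start, chr14:62162081-62162230, plus strand: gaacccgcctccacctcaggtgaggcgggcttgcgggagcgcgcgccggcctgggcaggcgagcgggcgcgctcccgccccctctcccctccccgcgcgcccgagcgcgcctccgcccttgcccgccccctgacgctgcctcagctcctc
Within 250 bp on either side of the strongest summit there were 2 copies of ACGTG and 1 of GCGTG, counting both strands.

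EPAS1, which encodes the alpha subunit often called HIF-2 alpha, lies at chr2:46520806-46613836 on the plus strand. Its promoter ranks were low, at 15.0, 17.6 and 0 in parental and 0, 48.3 and 35.9 in SAP30-KO1 libraries. Each group had 1 library with no promoter peak, and the groups overlapped (exact permutation test, two-sided, p = 0.4). The strongest EPAS1 locus was in an intron, 18.1 kb downstream of the canonical start, and had a peak in all 6 libraries. There the ranks were 89.1, 80.8 and 90.0 in parental and 87.7, 88.3 and 97.2 in SAP30-KO1 cells, again overlapping (exact permutation test, two-sided, p = 0.6). Each library thus ranked the intron above the promoter. The remaining 2 intronic loci of EPAS1 were seen in parental replicate 1 alone.

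ARNT, the shared partner of the alpha subunits, lies at chr1:150782189-150849184 on the minus strand and had a single locus, at its promoter. The ranks were 53.1, 25.8 and 50.7 in parental and 82.3, 86.8 and 50.9 in SAP30-KO1 libraries. SAP30-KO1 replicate 3 fell within the parental range, and the other 2 were far above it. The difference of 30.1 in mean rank was the widest among the 10 promoters, but limma did not call it (adjusted p = 0.703, SE 14.8). The exact permutation test (two-sided) gave p = 0.2, adjusted p = 1, and with 3 libraries a group it cannot pass adjustment. When peaks were ranked within their chromosome arm or held to a q value of 0.0001, all 3 SAP30-KO1 values lay above the parental ones.

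EGLN3 encodes an oxygen-sensing prolyl hydroxylase that is itself a target of the factors. The gene is annotated at chr14:34393433-34931980 on the minus strand. Long transcripts extend this model to 539 kb, whereas the canonical transcript starts at 34420280 in the part near the 3′ end. The strongest promoter peak ranked 94.3, 69.3 and 86.9 in parental and 85.2, 95.2 and 90.0 in SAP30-KO1 libraries (exact permutation test, two-sided, p = 0.6). In 5 of the 6 libraries that peak was at the far start, 511.2 kb from the canonical one, where a start of SPTSSA lies within 1 kb, so the reading cannot be given to EGLN3 alone. At the canonical start the ranks were 87.5, 56.7 and 79.4 in parental and 85.2, 84.1 and 78.1 in SAP30-KO1 libraries, and the groups overlapped there too.

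The EGLN3 window had more summits in SAP30-KO1 cells. Counts of 7, 7 and 10 in parental libraries stood against 11, 13 and 13 in SAP30-KO1 libraries, so the ranges did not overlap. The difference of 4.33 reached the smallest p that the test allows (exact permutation test, two-sided, p = 0.1, adjusted p = 1 over all gene windows). Per 10000 summits of the library the counts were 1.91, 2.297 and 2.98 against 3.70, 3.20 and 3.79, still apart. Of 16320 gene windows with a summit, 1.82% had such a rise and 1.24% such a fall. Among the 294 windows with a mean of 8 or more summits, the share that rose was 6.12%. Little of the rise lay near the canonical transcript. From 20 kb upstream of the canonical start to the gene's end, the counts were 2, 1 and 2 against 2, 2 and 2.

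The window held 14 loci, and the SAP30-KO1 mean was higher in 12 of them, or 85.7%, beside 51.1% of the 56419 loci of the series. This count was singled out after the values were seen, and neighbouring loci share their chromosome region, so they are not independent. In 3 loci all SAP30-KO1 ranks lay above all parental ranks, and in 0 did they lie below. Over all loci of the series, 5.86% lay above and 4.26% below. In the flanks of the window, the SAP30-KO1 mean was higher in 10 of 16 loci (62.5%) past the 3′ end and in 20 of 31 (64.5%) upstream, shares that also lie above that of the series. In the 1 Mb past the 3′ end the counts were 4, 8 and 8 against 6, 14 and 10 (exact permutation test, two-sided, p = 0.4). In the 1 Mb upstream of the window they were 22, 22 and 18 against 21, 23 and 20 (exact permutation test, two-sided, p = 0.8). Over the 568 loci of arm 14q found in every library, the median difference was 1.48 rank points.

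**Figure D2:**
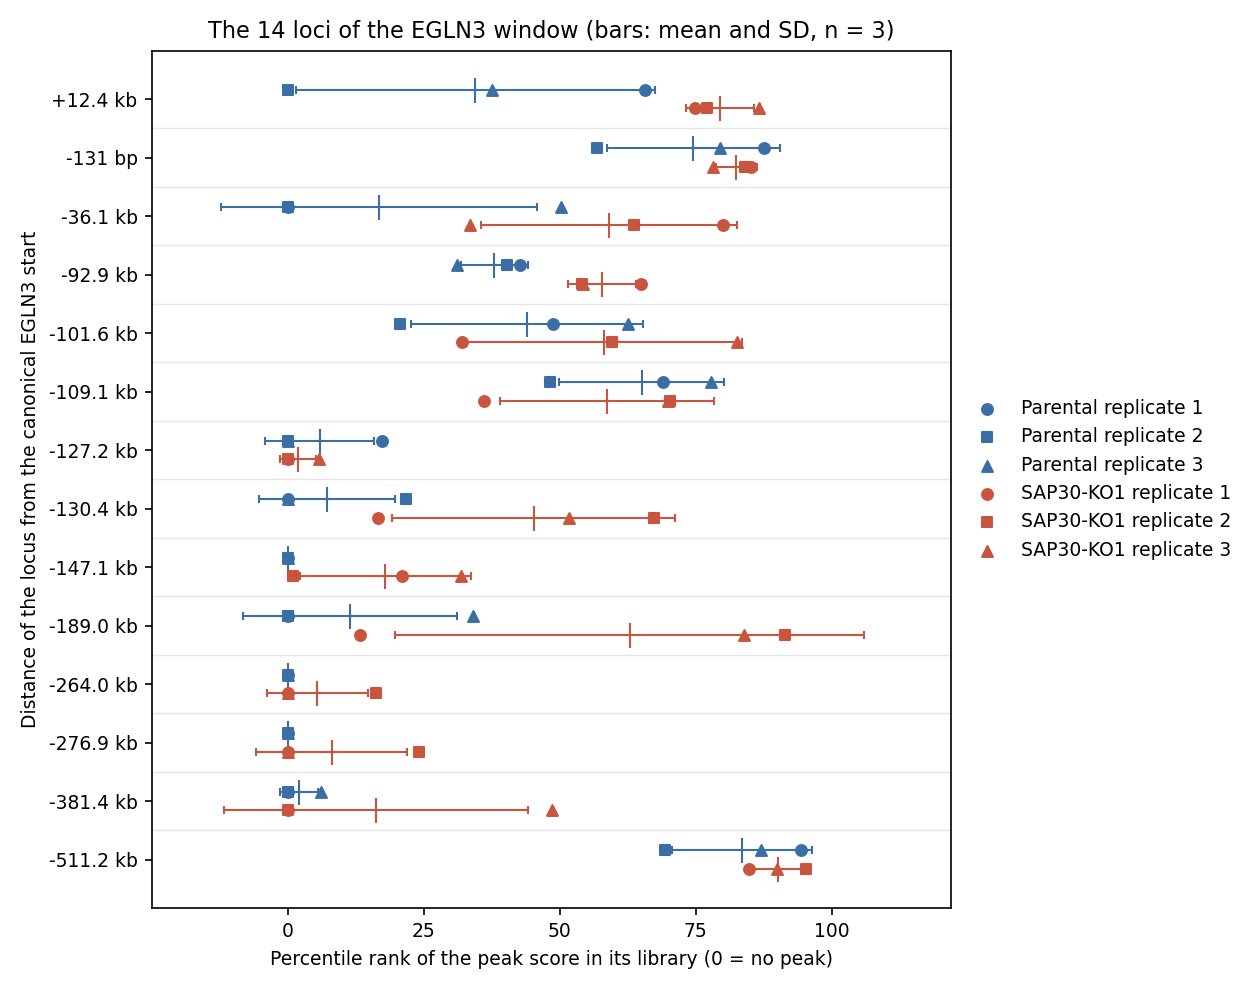
Percentile rank (x axis, 0 for no peak) of the 14 loci in the EGLN3 window (rows, by distance from the canonical start, plus for downstream) in 3 parental (blue) and 3 SAP30-KO1 (red) libraries, with group mean and SD. The red points lie wholly to the right of the blue ones in the rows 12.4 kb downstream and 92.9 and 147.1 kb upstream.

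The 3 loci whose groups were apart are printed. The intronic locus 12.4 kb downstream of the canonical start ranked 65.7, 0 and 37.6 in parental and 74.9, 77.0 and 86.6 in SAP30-KO1 libraries, a difference of 45.1. Parental replicate 2 had no peak there. The locus 92.9 kb upstream had a peak in all 6 libraries and ranked 42.6, 40.2 and 31.0 against 65.0, 54.0 and 54.2, a difference of 19.8. This was the tightest of the 3, with an SD of 6.14 in parental and 6.29 in SAP30-KO1 cells. The locus 147.1 kb upstream had no peak in any parental library and ranked 20.9, 0.84 and 31.9 in SAP30-KO1 libraries, so these were weak peaks. Each reached p = 0.1 (exact permutation test, two-sided), the smallest possible, which any locus with its groups apart must reach. For the locus 92.9 kb upstream limma gave an adjusted p of 0.669. The others lacked a peak in some library and were not fitted. The loci 36.1, 130.4 and 189 kb upstream, picked out after their values were seen, gave more of the added summits, since each had a peak in 1 parental and 3 SAP30-KO1 libraries. At 189 kb the ranks were 0, 0 and 34.1 in parental and 13.3, 91.3 and 83.9 in SAP30-KO1 libraries, and the difference of 51.4 was the widest of the 14 loci. At 36.1 kb the difference was 42.2 and at 130.4 kb it was 38.0, and in all 3 of these loci the groups overlapped (exact permutation test, two-sided, p = 0.2 each). The locus 109.1 kb upstream had the highest parental mean rank outside the EGLN3 promoters, 65.0, and a lower SAP30-KO1 mean, 58.7. It had a peak in all 6 libraries, and its groups overlapped. Capitals mark TGANTCA, the site of AP-1 factors, and the cores ACGTG and GCGTG, on either strand.
EGLN3 intron, chr14:34407799-34407949, minus strand: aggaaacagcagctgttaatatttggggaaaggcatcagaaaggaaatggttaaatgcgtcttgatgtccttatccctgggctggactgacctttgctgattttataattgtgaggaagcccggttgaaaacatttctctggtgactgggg
EGLN3 92.9 kb upstream, chr14:34513097-34513247, minus strand: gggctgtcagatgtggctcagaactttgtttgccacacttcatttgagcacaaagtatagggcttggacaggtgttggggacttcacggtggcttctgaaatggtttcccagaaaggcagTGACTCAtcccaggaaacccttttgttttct
EGLN3 147.1 kb upstream, chr14:34567257-34567407, minus strand: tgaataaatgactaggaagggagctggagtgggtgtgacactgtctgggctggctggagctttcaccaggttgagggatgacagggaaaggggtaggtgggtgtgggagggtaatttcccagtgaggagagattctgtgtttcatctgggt
Within 250 bp on either side of the summit, ACGTG stood in 6, GCGTG in 3 and TGANTCA in 7 of the 11 EGLN3 loci outside coding promoters. In the 10 such loci of the other genes they stood in 1, 4 and 7. Over the 42510 such loci of the series, the shares were 23.6%, 27.9% and 53.5%. A match is a run of letters and shows no bound factor.

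VEGFA encodes vascular endothelial growth factor A and lies at chr6:43737921-43754224 on the plus strand. It had no summit in its window in any of the 6 libraries. The nearest summit upstream of the canonical start was 44.9 to 45.0 kb away in every library. It ranked 28.8, 40.6 and 60.2 in parental and 84.7, 71.6 and 74.7 in SAP30-KO1 libraries. The SAP30-KO1 values all lay above the parental ones, as in 5.86% of all loci of the series. In each library but parental replicate 3, a nearer summit lay 28.6 to 28.9 kb downstream of the canonical start. It ranked 23.0 and 18.2 in parental replicates 1 and 2 and 32.9, 53.1 and 41.5 in SAP30-KO1 libraries. Both summits were outside the window, so neither was assigned to VEGFA. The peak numbers in the 6 lists ran with 0 breaks, so no summit was missing from a list by number. Within 250 bp on either side of the canonical start, the GC content of VEGFA was 61.5%, beside a median of 64.5% over all genes. Of the 7060 genes whose start holds 60% to 70% GC, 25.98% had no promoter peak in any library.
VEGFA upstream of the gene, chr6:43737771-43737920, plus strand: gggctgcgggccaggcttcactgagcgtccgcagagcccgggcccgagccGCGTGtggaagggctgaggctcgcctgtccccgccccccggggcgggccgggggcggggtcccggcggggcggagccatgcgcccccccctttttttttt
The capitals mark GCGTG, which stood once within 250 bp of the canonical start.

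CA9, which encodes a membrane carbonic anhydrase and is a widely used hypoxia marker, lies at chr9:35673925-35681156 on the plus strand. It too had no promoter peak in any library. Its start had a low ratio of observed to expected CpG, 0.21, beside a median of 0.774 over all genes. The window held 2 loci, both nearer to other genes' starts than to CA9. At the locus 15.9 kb upstream, where CCDC107 and the non-coding gene RMRP start within 1 kb, the ranks were 64.8, 70.4 and 62.2 in parental and 49.2, 36.7 and 42.6 in SAP30-KO1 libraries. The groups did not overlap, and the rank fell by 22.99 (exact permutation test, two-sided, p = 0.1; limma adjusted p = 0.607). At the locus 8.63 kb upstream, beside the start of ARHGEF39, the ranks were 47.9, 42.5 and 10.8 against 13.01, 34.5 and 12.4, which overlap.
CA9 upstream of the start, chr9:35673658-35673807, plus strand: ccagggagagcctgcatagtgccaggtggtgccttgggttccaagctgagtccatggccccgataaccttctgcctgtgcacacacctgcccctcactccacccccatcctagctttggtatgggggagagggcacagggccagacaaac
This stretch, the nearest 150 bases upstream that are free of coding exons, ends 118 bp before the CA9 start and does not reach it. It holds neither core, and 1 copy of ACGTG lay within 250 bp of the start.

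SLC2A1, the gene of the glucose transporter GLUT1, lies at chr1:43391024-43424564 on the minus strand. Its promoter ranks were low and patchy, at 23.3, 0 and 0 in parental and 30.9, 26.04 and 0 in SAP30-KO1 libraries. The value of SAP30-KO1 replicate 1 came from an internal start 26.9 kb into the gene, and at the canonical start 1 library of each group had a peak. The non-coding gene SLC2A1-DT starts within 1 kb of the locus at the canonical start. The groups overlapped (exact permutation test, two-sided, p = 0.4). In an intron 17.8 kb downstream of the canonical start, a locus ranked 27.1, 36.0 and 71.8 in parental and 0, 6.23 and 0 in SAP30-KO1 libraries. Thus 3 of 3 parental libraries and 1 of 3 SAP30-KO1 libraries had a peak, and the ranges did not overlap. The rank fell by 42.92, the widest fall among the 35 loci of the 10 genes (p = 0.1 by the two-sided exact permutation test, its smallest possible value). Over the 816 loci of arm 1p found in every library, the median difference was 5.28, in the other direction.
SLC2A1 intron, chr1:43406704-43406854, minus strand: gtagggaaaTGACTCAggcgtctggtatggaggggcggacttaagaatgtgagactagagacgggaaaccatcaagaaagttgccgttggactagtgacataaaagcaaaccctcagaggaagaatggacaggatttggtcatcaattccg
The capitals mark TGANTCA near the 5′ end of the printed stretch, and 1 copy each of ACGTG and GCGTG lay within 250 bp of the summit.

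PDK1 encodes a kinase that shuts off pyruvate dehydrogenase and lies at chr2:173420101-173473397 on the plus strand. Over the 6 libraries its promoter, where the non-coding gene PDK1-AS1 also starts within 1 kb, had the widest range of the 10 genes. The ranks were 52.9, 8.05 and 16.8 in parental and 23.9, 88.1 and 14.8 in SAP30-KO1 libraries. SAP30-KO1 replicate 2 alone lay above the parental range. The means of 25.9 ± 23.8 and 42.3 ± 39.95 (SD, n = 3 each) did not differ beyond the spread (exact permutation test, two-sided, p = 0.6).

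LDHA encodes the lactate dehydrogenase subunit that turns pyruvate into lactate, and lies at chr11:18416107-18429972 on the plus strand. Its strongest promoter peak ranked 70.2, 90.7 and 86.0 in parental and 55.0, 67.7 and 64.8 in SAP30-KO1 libraries. All 3 SAP30-KO1 libraries lay below all 3 parental ones, the nearest values being 67.7 and 70.2. The groups were no longer apart at a q value of 0.0001, with ranks within the chromosome arm or with the summit nearest to a start (exact permutation test, two-sided, p = 0.2 each). The means were 82.3 ± 10.7 and 62.5 ± 6.61 (SD, n = 3 each), and the rank fell by 19.8. The test gave its smallest possible value (exact permutation test, two-sided, p = 0.1, adjusted p = 0.945), and limma gave an adjusted p of 0.725. This peak lay at a downstream start, 1.64 kb past the canonical start. At the canonical start itself the ranks were 62.8, 67.1 and 9.04 in parental and 45.1, 55.3 and 62.6 in SAP30-KO1 libraries, with parental replicate 3 far below the rest and no separation of the groups. With the canonical start alone, the mean LDHA rank was thus 7.99 higher in SAP30-KO1 cells (exact permutation test, two-sided, p = 1). A further locus 10.7 kb upstream was among the strongest of each library, at ranks of 97.1, 98.9 and 97.1 against 94.4, 97.7 and 99.4.
LDHA upstream of the start, chr11:18415957-18416106, plus strand: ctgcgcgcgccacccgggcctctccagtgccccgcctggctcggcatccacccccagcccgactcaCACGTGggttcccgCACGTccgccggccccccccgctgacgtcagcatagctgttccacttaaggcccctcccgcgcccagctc
LDHA downstream start, chr11:18417672-18417822, plus strand: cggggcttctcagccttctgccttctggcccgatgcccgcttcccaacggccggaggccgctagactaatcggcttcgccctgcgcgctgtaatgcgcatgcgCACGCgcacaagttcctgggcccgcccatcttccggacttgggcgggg
Both stretches are shown because the start with the most response-element cores was not the one at which the groups' ranks lay apart. In capitals, the upstream stretch has 3 ACGTG cores over both strands, where the palindrome CACGTG counts once on each strand, and within 250 bp of the canonical start there were 6, the highest number among the 10 genes. The downstream start had 2 copies of ACGTG and 1 of GCGTG within 250 bp of its summit.

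**Figure D3:**
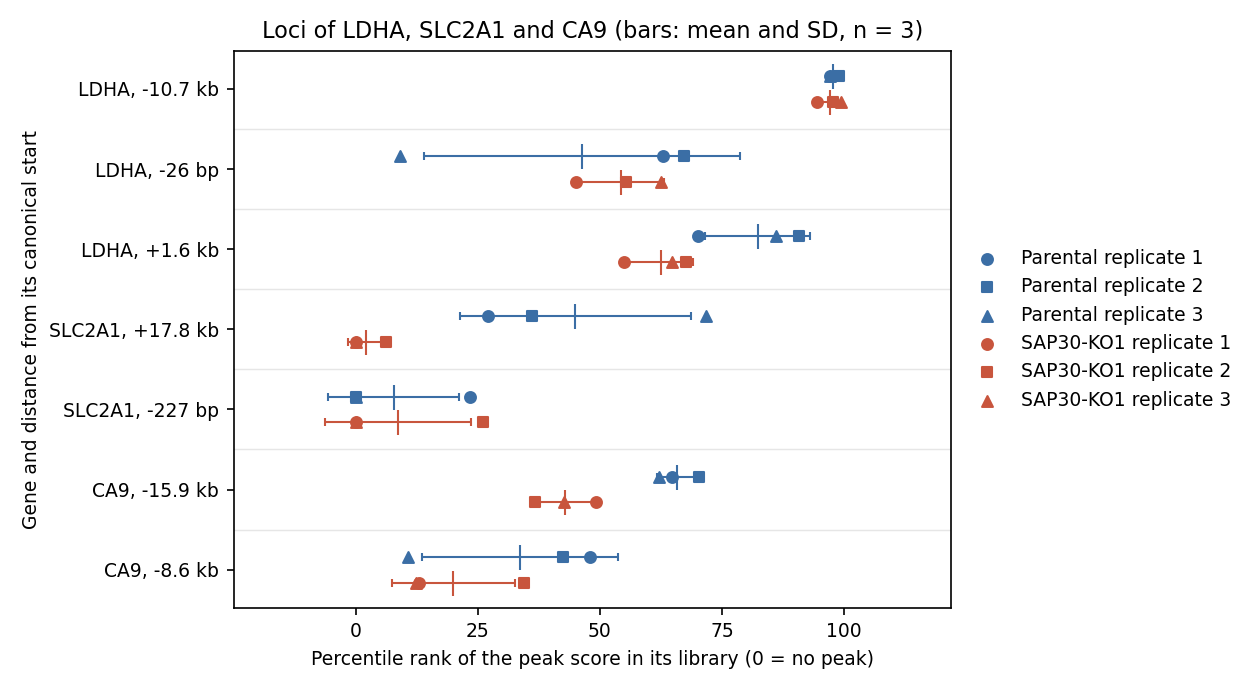
Percentile rank (x axis, 0 for no peak) at loci in the windows of LDHA, SLC2A1 and CA9 (rows, by distance from the canonical start) in 3 parental (blue) and 3 SAP30-KO1 (red) libraries, with group mean and SD. The groups are apart, with red to the left, 1.64 kb downstream at LDHA, 17.8 kb downstream at SLC2A1 and 15.9 kb upstream of CA9. They overlap at the other rows. The row 15.9 kb upstream of CA9 lies beside the starts of CCDC107 and RMRP.

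ANKRD37 encodes an ankyrin-repeat protein and lies at chr4:186317175-186321782 on the plus strand. Its promoter ranked 81.0, 23.8 and 70.5 in parental and 48.0, 79.7 and 65.7 in SAP30-KO1 libraries. The groups overlapped almost wholly (exact permutation test, two-sided, p = 0.9), with parental replicate 2 lowest. A start of LRP2BP lies within 1 kb, so the locus is shared. Like LDHA, its upstream sequence has 3 ACGTG cores.
ANKRD37 upstream of the start, chr4:186317815-186317964, plus strand: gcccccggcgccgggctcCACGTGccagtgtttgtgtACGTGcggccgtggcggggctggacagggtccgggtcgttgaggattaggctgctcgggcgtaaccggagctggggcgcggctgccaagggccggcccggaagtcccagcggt

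Response-element cores were counted at all canonical starts, within 250 bp on either side. ACGTG stood in 4 genes (CA9, PDK1, LDHA and ANKRD37) and GCGTG in 6, and 9 had either core. Over all 20176 genes, 32.4% held ACGTG, 58.3% GCGTG and 70.3% either. ARNT was the gene with neither core. CA9, which holds ACGTG, had no promoter peak, whereas HIF1A, which holds only GCGTG there, had the strongest.

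Over all windows, the 10 genes had 27, 20 and 21 summits in parental and 24, 28 and 27 in SAP30-KO1 libraries, which overlap. Per 10000 summits these were 7.36, 6.56 and 6.26 against 8.06, 6.89 and 7.88. The total rested on EGLN3, and without it the SAP30-KO1 mean was lower by 0.667. Outside EGLN3, every gene with summits had overlapping counts. The windows held 35 loci, and 15 of them (42.9%) were found in every library, beside 28.9% of all loci. The share was 66.7% in the 12 loci at promoters of the 10 genes. In the other 23 loci it was 30.4%. The share of all loci covers promoter and other loci together, so neither value has a comparator of its own class. In 3 loci (8.57%), in the windows of LDHA, SLC2A1 and CA9, the SAP30-KO1 ranks were all lower, beside 4.26% of all loci. The locus in the CA9 window lay beside the starts of CCDC107 and RMRP, so it cannot be given to CA9. In the 3 EGLN3 loci (8.57%) they were all higher, beside 5.86% of all loci. limma, fitted to the ranks of the 16314 loci found in every library, called 0 (0%) at an adjusted p of 0.05, with 1511 at an unadjusted p under 0.05.

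**Figure D4:**
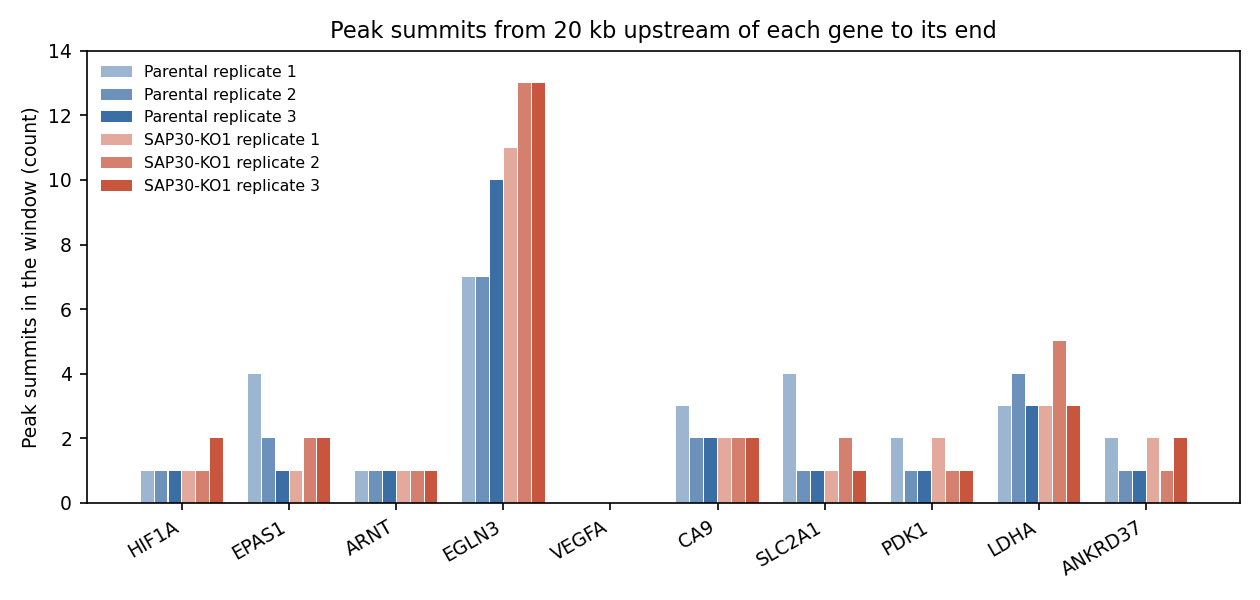
Number of peak summits (y axis, count) from 20 kb upstream of each gene (x axis) to its end, 1 bar per library, with parental in blue and SAP30-KO1 in red. EGLN3 has 7 to 10 summits in parental and 11 to 13 in SAP30-KO1 libraries, VEGFA has 0 in all, and the other genes overlap.

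A list of 70 further genes of the pathway was followed at the promoter. A peak was found in at least 1 library for 63 of them and in all 6 libraries for 35 (50%). The 7 with no peak were HIF3A, PFKP, ALDOC, TPI1, SLC2A3, EPO and FLT1. Of the 63, all 3 SAP30-KO1 ranks were lower in 2 (3.17%) and higher in 4 (6.35%), close to the shares over all promoters. The lower ones were INSIG2, an inhibitor of sterol synthesis, with a fall of 11.4, and CUL2, the cullin of the VHL ligase, with a fall of 10.0. The higher ones were GPI, a glycolytic isomerase, with a difference of 49.1, PLOD2, a collagen lysyl hydroxylase, with 29.8, AK4, an adenylate kinase, with 23.99, and GYS1, muscle glycogen synthase, with 13.5. Each had p = 0.1 by the exact permutation test (two-sided), its smallest possible value. Groups that are apart always give this value, so it adds nothing, and none could pass adjustment. Over the 35 found in every library the median difference was -0.59, beside 0.34 over all 6966 such promoters.

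**Figure D5:**
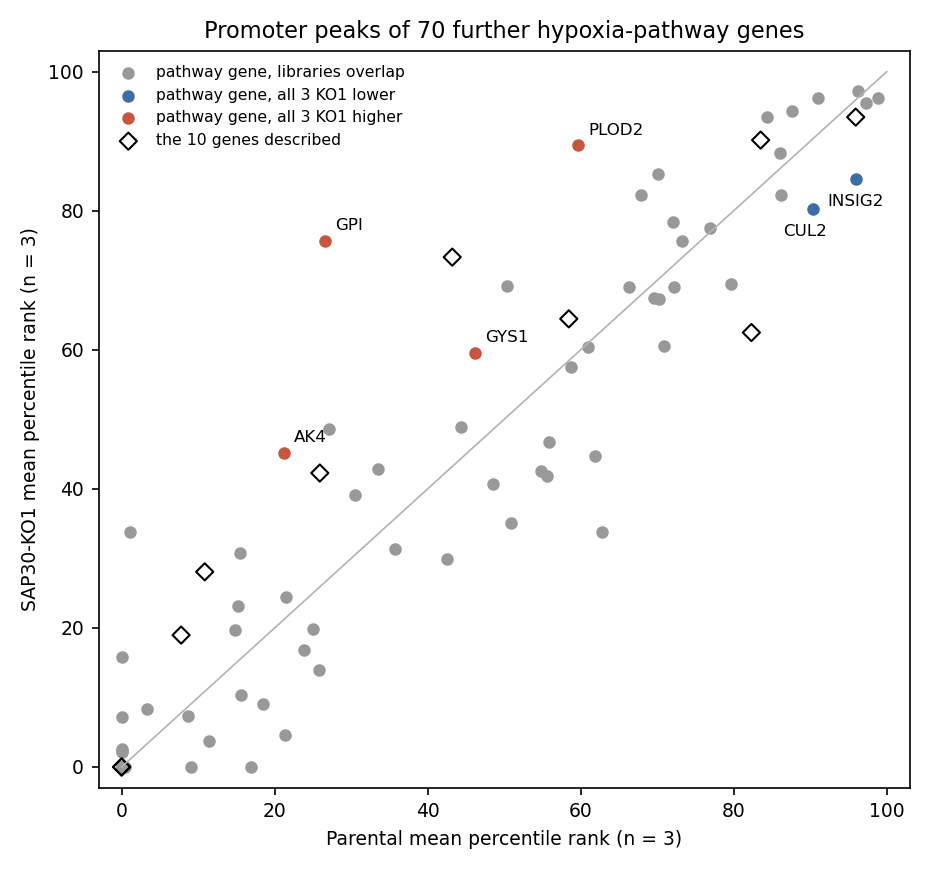
Mean percentile rank of the promoter peak in parental (x axis) and SAP30-KO1 cells (y axis, n = 3 each) for 70 further pathway genes (dots) and the 10 genes described (diamonds), with the line of equal ranks. The points scatter on both sides of the line, with the 4 higher genes named above it and the 2 lower genes named under it.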

How the data were processed

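Single-end ATAC-seq reads of 3 parental and 3 SAP30-KO1 libraries had been made from MDA-MB-231 cells. Per the labels and methods, the authors trimmed reads with Trim Galore 0.4.5, aligned them to hg19 with Bowtie2 2.3.3.1, removed duplicate alignments (Picard) and ran MACS2 2.1.0 to call peaks, keeping q values up to 0.05. A shift for the transposase, removal of blacklisted regions and handling of mitochondrial reads are not given in the sources used here. The deposited lists hold 1 summit per peak with its score, a q value that the authors' caller had put on the −log10 scale.

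Scores were ranked within each library (Python 3.11.15, pandas 2.3.3, scipy 1.17.1) and joined to GENCODE release 44 on GRCh37. Groups were compared with an exact permutation test, two-sided, and with limma 3.58.1 in R 4.3.3, both adjusted over all features by Benjamini-Hochberg. The code was tested on simulated lists. Same-numbered libraries had correlations of -0.018, -0.029 and 0.012 in their deviations from the group means, so the ranks showed no pairing. That check cannot tell whether same-numbered libraries were prepared together. The 10 genes, the marker and pathway lists and the tests were chosen with earlier results of these data known. Named are all 10 genes, their strongest loci outside promoters, up to 5 loci and 5 pathway genes a direction whose ranges were apart with the largest differences, and SAP30. Summits were counted in each window as designed. The TGANTCA motif, the canonical-start settings and the closer look at EGLN3 were chosen after seeing the data.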

Additional observations from a re-analysis of the deposited data

How the results depend on the processing

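With all libraries kept, the difference in mean promoter rank of the 10 genes was 6.52. Its alternatives gave 2.80 (promoters of 2.5 kb) to 8.41 (canonical start only). The spread between libraries is larger than this difference, so these alternatives cannot show that it is stable. The counts of genes (8 alternatives) and of loci (4) found in every library stayed within 1.5 times. For the promoter ranks of single genes, 61 of 64 alternatives kept the direction. Many of the 64 returned exactly the main value, so this count does not measure stability. HIF1A (-2.48), EPAS1 (17.2) and ARNT (30.1) were unchanged with promoters of 2.5 kb, with the nearest summit and at the canonical start. SLC2A1 reversed to -26.03 with promoters of 2.5 kb, ANKRD37 to -7.75 with the summit nearest to a start, and LDHA to 7.99 at the canonical start only. The top summit of the intronic SLC2A1 locus whose rank fell lies 2130 bp from an internal start, so promoters of 2.5 kb take it in. LDHA was no longer apart in 4 settings: at a q value of 0.0001, within the chromosome arm, with the nearest summit and at the canonical start, each of which left 0 genes lower. A q value of 0.0001 and ranks within the arm each put 1 gene, ARNT, higher. The total of window summits turned to -0.333 with windows of the canonical start and to -0.667 without EGLN3, and without EGLN3 0 loci were higher.

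Leaving out 1 library at a time gave a mean rank difference of 0.844 to 10.4, 1 to 1 genes lower and 0 to 2 higher, 6 to 6 genes with a peak in all, a summit difference of 2.33 to 5.83, 15 to 16 loci in all libraries, 3 to 5 lower and 3 to 6 higher. Groups that are apart stay apart when a library is dropped, and a gene with a peak in every library keeps it. The gene counts could therefore not fall, the locus counts are bound in nearly the same way, and neither measures stability. ANKRD37 ranged from -11.3 to 17.3, EGLN3 from -0.46 to 12.05 and PDK1 from -6.55 to 30.1. ANKRD37 reversed to -11.30 without parental replicate 2 and to -1.61 without SAP30-KO1 replicate 2, EGLN3 to -0.463 without parental replicate 2 and PDK1 to -6.55 without SAP30-KO1 replicate 2. The cause of these changes was not tested.

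With the replicate number as a block, differences are the same by construction in this balanced design (LDHA -19.83, EGLN3 summits 4.33), and both gave p = 0.25, the smallest that the exact sign-flip test allows, so it says nothing about stability. limma was run for no other setting than the block, with which it called 0 promoters, with 405 at an unadjusted p under 0.05, and 0 loci, with 1384. Depth is unknown, and 3 libraries a group limit each comparison.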
